A study of Mus musculus with 6 samples.

Results

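The 40 genes described here encode actins, the proteins that bind, cross-link or pull on actin filaments, and further targets of serum response factor (SRF). They were named one by one as actins, actin-binding genes and contractile genes, and where several probe sets were annotated to a gene's symbol alone, the one brightest on average across the 6 arrays stood for the gene. All 40 were measured, out of 18193 genes with such a probe set. The samples were mouse embryonic stem (ES) cells of strain 129SV, 3 arrays of Med23 knockout cells (labelled MED23 knockout) and 3 arrays of wild-type cells, all taken after 24 hours in fresh complete ES cell medium and hybridised to Affymetrix arrays. Med23 is a subunit of Mediator, which bridges DNA-bound regulators and RNA polymerase II. The labels call the replicates biological and do not say how they were made or how many knockout clones were used, so p values measure the spread between these samples. The study asked how loss of Med23 alters expression in steady culture.

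Actin cycles between single molecules and filaments, and this cycle is tied to transcription. Free actin monomers hold the coactivators MRTF-A and MRTF-B in the cytoplasm, and when monomers are used up by filament growth, MRTF enters the nucleus and joins SRF on a DNA element called the CArG box. SRF also works with the ternary complex factors Elk1, Elk3 and Elk4, ETS proteins that respond to ERK signalling and drive immediate early genes such as Egr1. Known SRF targets include many actin genes themselves, the smooth muscle genes Tagln, Cnn1 and Cald1, and the vinculin gene Vcl.

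The Med23 probe set read 7.40, 7.37 and 7.33 in knockout replicates 1, 2 and 3 and 8.95, 8.86 and 8.84 in wild-type replicates 1, 2 and 3 (log2 expression values, as everywhere below). The Y-linked gene Eif2s3y averaged 9.87 ± 0.15 in knockout arrays and 3.04 ± 0.37 in wild-type arrays (SD, n = 3 each), so the lines differ in more than Med23 and an effect of Med23 cannot be told apart from other differences between them. Array medians lay between 4.61 and 4.64, and values below the median of all values (4.62) may not be separable from background. With 3 arrays a group, the number of arrays limits precision throughout. None of the 8 ES cell markers had both group means below that median, Pou5f1 averaging 12.92 in knockout and 12.96 in wild-type arrays. Of these 8 markers 1 fell, Tdgf1 (log2 fold change -0.28, limma adjusted p = 0.0454), and none rose. Nanog (0.23, limma adjusted p = 0.0957), Esrrb (0.37, limma adjusted p = 0.0737), Sox2 (0.07) and Zfp42 (0.09) were higher without overlap but did not pass. Dppa5a (-0.08) was, like Tdgf1, lower without overlap, and it did not pass. Over all genes, 21.4% were higher and 19.5% lower without overlap. Of 16 extraembryonic endoderm markers 14 fell and none rose, and their summed log2 level ran from 88.2 to 89.8 in knockout and from 118 to 125 in wild-type arrays. Of 14 muscle markers 3 fell and 8 were below 4.62 in both groups, Myh11 among them, and the summed level was 63.3 to 64.8 in knockout and 65.3 to 66.9 in wild-type arrays. Of 12 fibroblast markers 2 fell and 9 were below 4.62 in both groups, with sums of 44.9 to 46.1 in knockout and 46.7 to 47.8 in wild-type arrays. Of 10 markers of trophoblast and simple epithelium 4 fell, with sums of 59.6 to 60.1 in knockout and 67.5 to 69.2 in wild-type arrays. The 4 that fell were all keratin genes, and the 6 transcription factor genes of trophoblast in this list did not pass. The part of these other cell types in the changes below was not tested.

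The CArG boxes found near the starts of these genes are shown first, because they are the DNA element by which SRF recognises its targets. A CArG box was taken as 2 C, then 6 bases that are each A or T, then 2 G, which reads as the same pattern on the other strand. Of the 40 genes, 35 had a window in the RefSeq promoter table (GRCm38.p6, from 250 bases before to 50 after the start). Windows of 9 of the 35 genes (25.7%) held a CArG box, against 229 of 14452 genes on the array with a window (1.58%). The genes were picked in part as SRF targets, so this share is a description of the choice. Fhl2 held 1 box in each of 2 alternative windows. Each line gives the box in capitals with 20 bases on either side, 5′ to 3′ on the strand of the gene, in order of the change described further on.
Fhl1 (chrX:56779561-56779610, plus strand): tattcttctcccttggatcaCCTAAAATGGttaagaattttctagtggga
Fhl2, upstream start (chr1:43196828-43196877, minus strand): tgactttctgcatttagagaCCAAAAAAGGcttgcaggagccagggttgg
Fhl2, downstream start (chr1:43163963-43164012, minus strand): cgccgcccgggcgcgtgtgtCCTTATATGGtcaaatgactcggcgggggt
Acta1 (chr8:123894819-123894868, minus strand): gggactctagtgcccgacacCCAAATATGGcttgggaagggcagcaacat
Actg1 (chr11:120348556-120348605, minus strand): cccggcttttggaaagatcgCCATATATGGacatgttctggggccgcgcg
Myl6 (chr10:128493030-128493079, minus strand): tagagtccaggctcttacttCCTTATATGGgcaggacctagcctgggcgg
Vcl (chr14:20929151-20929200, plus strand): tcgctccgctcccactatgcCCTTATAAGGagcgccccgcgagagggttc
Lima1 (chr15:99820167-99820216, minus strand): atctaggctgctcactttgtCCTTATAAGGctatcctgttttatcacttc
Cnn2 (chr10:79988524-79988573, plus strand): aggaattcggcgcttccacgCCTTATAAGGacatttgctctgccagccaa
Myl9 (chr2:156775283-156775332, plus strand): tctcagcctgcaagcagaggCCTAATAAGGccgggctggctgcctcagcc

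The boxes began between 31 and 227 bases upstream of the start. Vcl, Lima1 and Cnn2 carried the same 10 letters. The boxes of Fhl2 at its downstream start and of Myl6 were likewise identical to each other. The genes with a box did not share a direction: 3 of 10 genes lower in the knockout with a window held one (Fhl1, Fhl2 and Acta1), as did 2 of 3 genes higher in the knockout (Myl9 and Lima1) and 4 of 22 genes that did not pass the test. The ETS core CCGGAA, searched on both strands and unable to overlap a CArG box, was in windows of 6 of the 35 genes (17.1%), against 24.1% of array genes. Actb, Actg2, Csrp2, Tagln and Tgfb1i1 had no window.

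**Figure D1:**
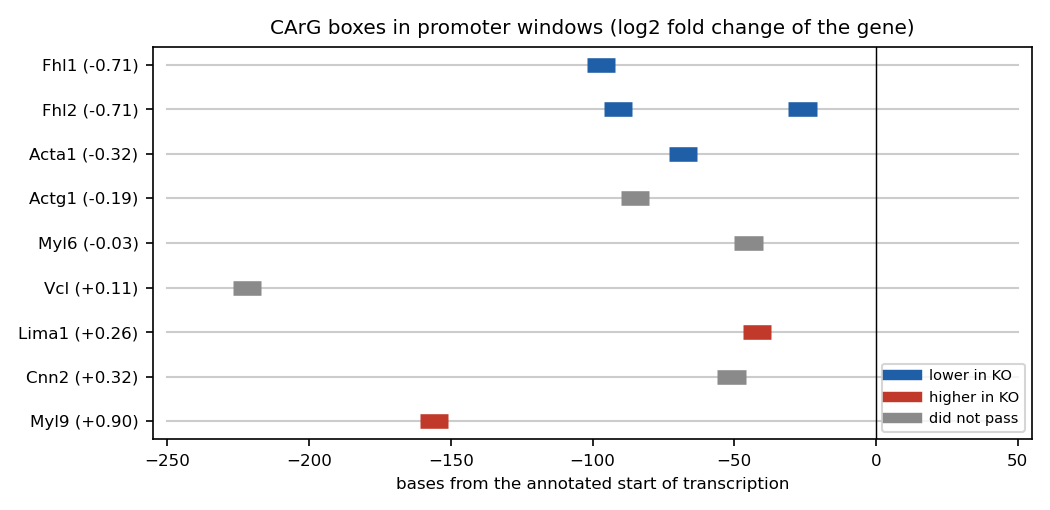
Place of each CArG box in the promoter windows of 9 genes, in bases from the annotated start (0). Grey lines span the window of 250 bases before to 50 after the start, boxes are coloured by the call of the gene, and the log2 fold change (Med23 KO minus wild type) stands beside each name. The boxes of 9 genes lie upstream of the start, and blue (lower), red (higher) and grey (did not pass) genes are all among them.

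More of the 40 genes were lower than higher in the knockout, led by the smooth muscle gene Tagln, and a majority did not pass the test. At an adjusted p under 0.05 (limma, Benjamini-Hochberg over all 45037 probe sets), 11 fell, 3 rose and 26 did not pass. Over all genes 10.4% were called lower and 8.53% higher. The share of the 40 genes that fell was 27.5% and the share that rose 7.5%. Only 3 of the 40 genes (Actg2, Mylk and Tgfb1i1) had both group means below 4.62. Among all genes with a mean above the median of all values, 14.5% were called lower and 12.2% higher. The median log2 fold change (knockout minus wild type) over the 40 genes was -0.03, against 0.02 over all genes, with 22 values below 0 and 18 above. The median size of a log2 fold change, sign ignored, was 0.18 for the 40 genes and 0.13 for all genes. The 3 knockout and 3 wild-type arrays did not overlap for 16 of the 40 genes that were lower and 9 of the 40 that were higher in the knockout. Over all genes the share without overlap was 19.5% lower and 21.4% higher. Leaving out 1 array changed the counts: with knockout replicate 1, 2 or 3 left out the number that fell was 7, 6 and 6, and with wild-type replicate 3 left out it was 7, while 5 rose once wild-type replicate 1 was left out. Genes that kept their call in every alternative that gave a value were Tagln, Cald1, Fhl1, Fhl2, Csrp1 and Flnc, which fell, and Myl9 and Myh10, which rose.

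**Figure D2:**
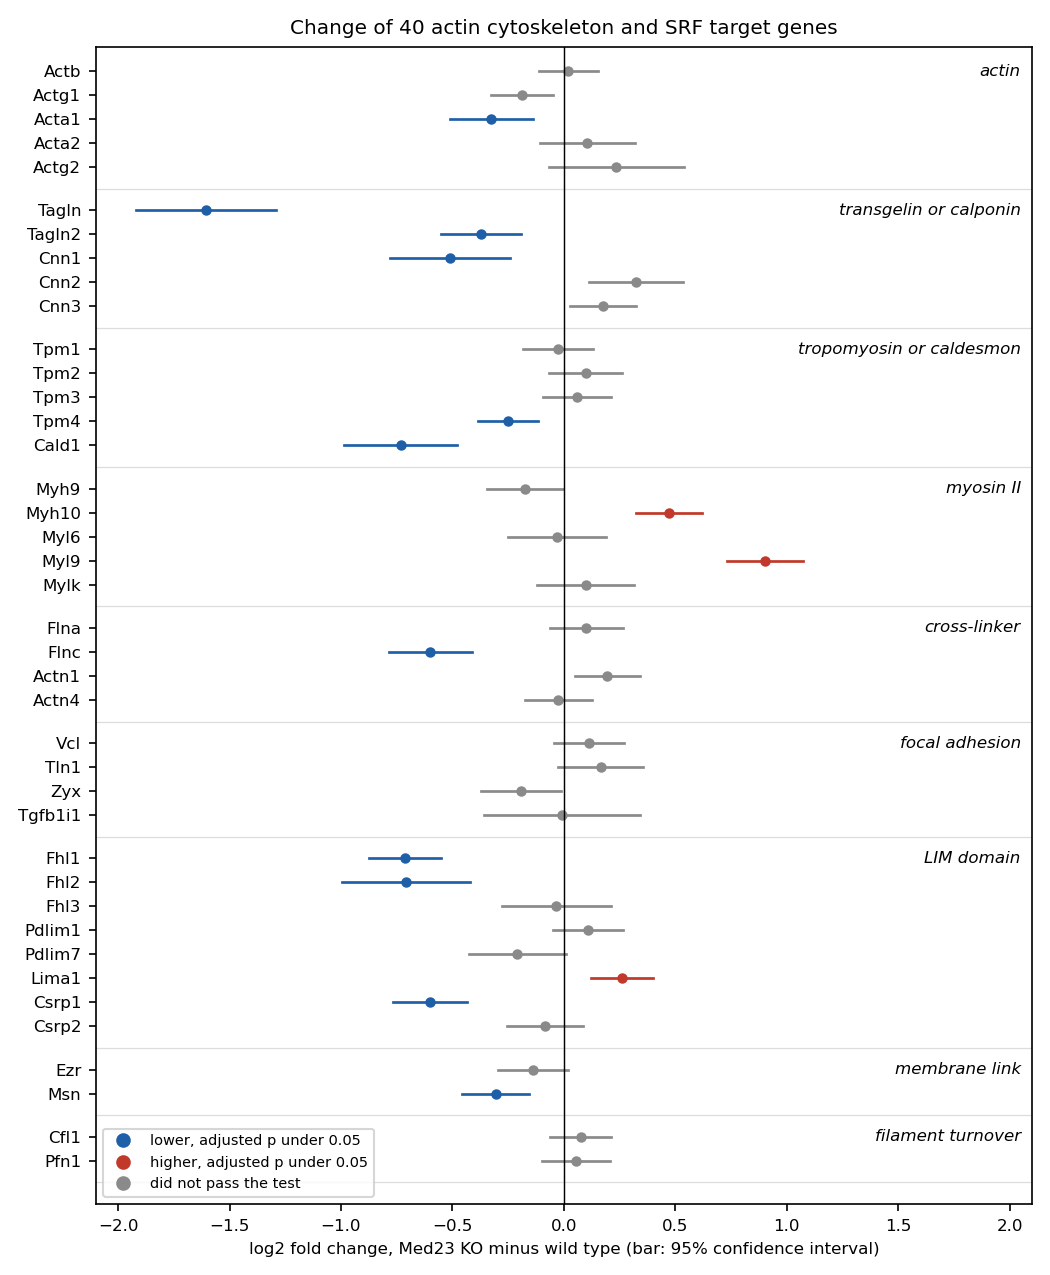
Log2 fold change (Med23 KO minus wild type) of each of the 40 genes with its 95% confidence interval from limma, grouped by role. Blue genes were lower, red genes higher at an adjusted p under 0.05 and grey genes did not pass. Tagln lies farthest to the left at -1.61 and Myl9 farthest to the right at 0.90.

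The 5 actin genes comprise the cytoplasmic actins Actb and Actg1, the skeletal muscle actin Acta1 and the smooth muscle actins Acta2 and Actg2. Their coding parts are very alike, so a probe set can pick up signal from a relative. The probe sets used for Actg1 and Acta2 carry the ending s, those for Actb, Acta1 and Actg2 the ending a. Both endings mark probes shared between transcripts, but the ending a does not by itself mark sharing with another gene. Actb read 14.13, 14.14 and 14.12 in knockout replicates 1, 2 and 3 and 14.11, 14.09 and 14.12 in wild-type replicates 1, 2 and 3. Its log2 fold change was 0.02 (95% interval -0.11 to 0.15, adjusted p = 0.872), close to the top of the scale, where arrays can saturate. A second Actb probe set, with group means of 12.16 in the knockout and 12.17 in the wild type, also did not pass. Actg1, the partner of Actb in non-muscle cells, read 13.70, 13.66 and 13.66 in knockout and 13.90, 13.86 and 13.82 in wild-type arrays. The groups did not overlap, yet the difference of -0.19 missed the threshold (SE 0.06, adjusted p = 0.0875). Actg1 passed in 3 of the 15 alternatives that gave a value.

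Acta1 fell: it read 5.99, 5.85 and 5.74 in knockout arrays and 6.18, 6.20 and 6.17 in wild-type arrays (log2 fold change -0.32, SE 0.08, adjusted p = 0.0347). All 3 knockout values lay below all wild-type values, but the call was lost under quantile normalization, under the replicate block and in 5 of 6 fits with an array omitted, all but the one without knockout replicate 1. The highest adjusted p, 0.116, came without knockout replicate 3. Acta2 averaged 5.64 ± 0.11 in knockout and 5.53 ± 0.12 in wild-type arrays (SD, n = 3 each), a difference of 0.11 (95% interval -0.11 to 0.32). Actg2 stayed below 4.62 on every array.

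Transgelins and calponins share a fold and bind along actin filaments, and they held the largest change of the set. Tagln, the smooth muscle transgelin SM22-alpha and a classical SRF target, read 6.85, 6.88 and 7.01 in knockout replicates 1, 2 and 3 and 8.40, 8.33 and 8.82 in wild-type replicates 1, 2 and 3. All knockout values lay more than 1 log2 unit below the lowest wild-type value. The group means were 6.91 ± 0.09 and 8.52 ± 0.27 (knockout and wild type, SD, n = 3 each), which is 3.04-fold lower in the knockout (log2 fold change -1.61, SE 0.13, adjusted p = 0.000412). Tagln was the only one of the 40 genes called with a change of at least 2-fold, and 1.93% of all genes were called lower by that much.

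Its relative Tagln2, expressed in many cell types, fell by less. It read 10.09, 10.09 and 10.15 in knockout and 10.61, 10.43 and 10.40 in wild-type arrays (log2 fold change -0.37, SE 0.08, adjusted p = 0.0193). A second bright probe set of Tagln2 also fell, by 0.25. The call was lost when any one knockout array was left out (adjusted p 0.0581 to 0.077), under the replicate block (0.0575) and when all 3 probe sets were averaged (0.0981).

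The calponins split. Cnn1, the smooth muscle calponin, fell (5.15, 5.41 and 5.34 in knockout arrays, 5.80, 5.63 and 5.997 in wild-type arrays, log2 fold change -0.51, SE 0.11, adjusted p = 0.0265), and its groups did not overlap. This call was lost in 5 of 6 fits with an array omitted, all but the one without wild-type replicate 2, with the highest adjusted p, 0.0876, without knockout replicate 1. Cnn2, found in many non-muscle cells, had the opposite sign at 0.32 and missed the threshold (9.87, 9.77 and 9.78 in knockout arrays, 9.66, 9.43 and 9.36 in wild-type arrays, adjusted p = 0.0574). Cnn3, the acidic calponin, was read by 6 probe sets, and the brightest did not pass (0.18, adjusted p = 0.126), whereas 4 others were higher, by 0.24 to 0.42. All 6 had values above 0 without overlap, so the call of Cnn3 depends on the probe set but its direction does not.

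**Figure D3:**
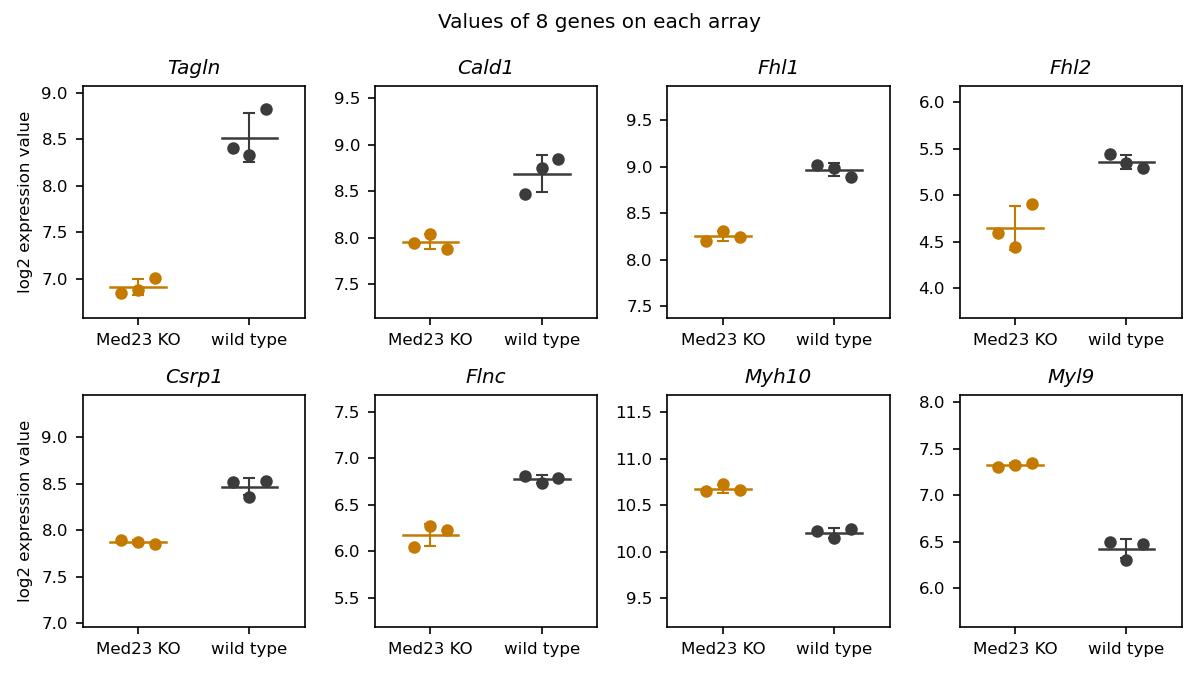
Log2 expression values of 8 genes in the 3 Med23 KO arrays (left, orange) and the 3 wild-type arrays (right, dark grey), with the mean as a horizontal line and the SD as a bar; every panel spans the same number of log2 units. The genes are those that passed the test in every alternative that gave a value. In each panel the groups do not overlap, with 6 genes lower in the knockout and Myl9 and Myh10 higher.

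Tropomyosins run along the groove of the filament and set which partners can bind it, and caldesmon, encoded by Cald1, holds back myosin in smooth muscle and non-muscle cells. Cald1 read 7.95, 8.04 and 7.89 in knockout and 8.47, 8.76 and 8.85 in wild-type arrays, the second largest fall among the 40 genes (log2 fold change -0.73, SE 0.11, adjusted p = 0.0047). The highest knockout value was below the lowest wild-type value. Of 5 Cald1 probe sets, the 3 brightest all fell, by 0.51 to 0.81. Tpm4 fell slightly and evenly, with 10.72, 10.76 and 10.75 in knockout against 10.99, 10.99 and 11.001 in wild-type arrays (log2 fold change -0.25, SE 0.06, adjusted p = 0.0284). Its call was lost under the replicate block and in 5 of 6 fits with an array omitted, all but the one without wild-type replicate 1, and reached an adjusted p of 0.108 without knockout replicate 1. Tpm2 and Tpm3 did not pass, with differences of 0.10 and 0.06.

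Tpm1, which makes muscle and non-muscle tropomyosins through alternative promoters and exons, gave opposite pictures. Its brightest probe set read 10.70, 10.69 and 10.68 in knockout and 10.73, 10.63 and 10.79 in wild-type arrays, a difference of -0.03 that did not pass. A dimmer probe set read 7.85, 7.95 and 7.89 in knockout and 7.26, 6.92 and 7.04 in wild-type arrays, which is a rise of 0.83 (SE 0.10, adjusted p = 0.0017). A further one had a difference of -0.21 (adjusted p = 0.123). Which Tpm1 transcripts each probe set reads is not stated in the labels or the annotation used here.

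**Figure D4:**
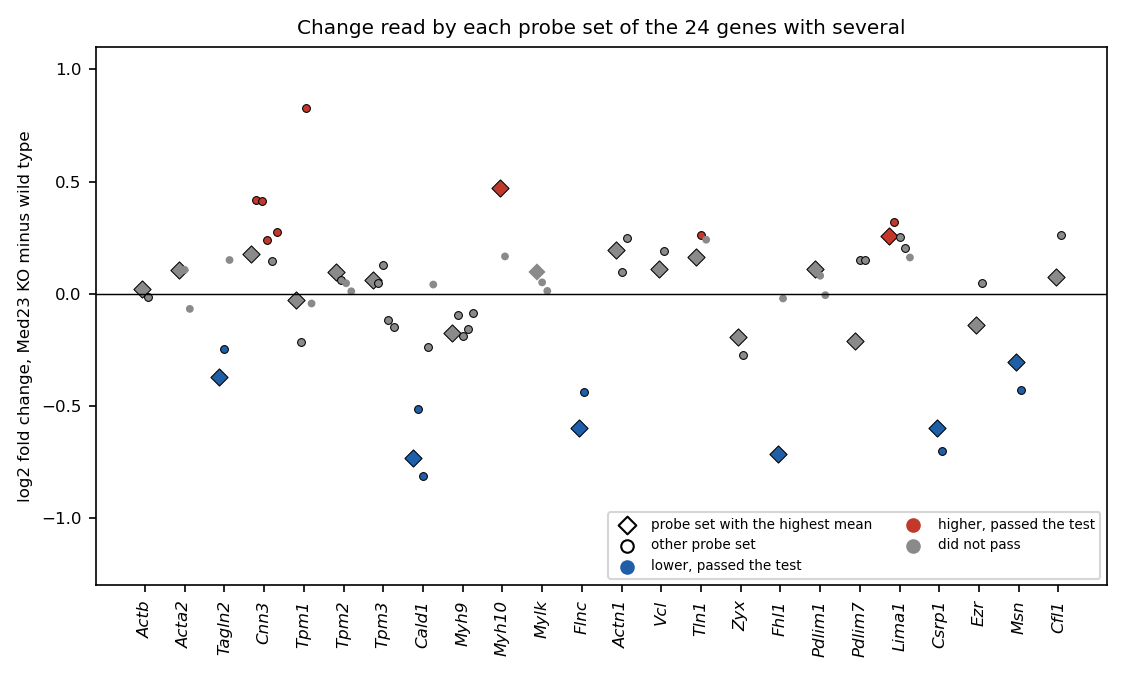
Log2 fold change (Med23 KO minus wild type) read by every probe set of the 24 genes that have more than 1. Diamonds are the brightest probe set of a gene, circles the others, a black outline marks a mean above the median of all values, and colours give the call. The dimmer Tpm1 probe set at 0.83 stands apart from its grey diamond, and 4 circles of Cnn3 are red while its diamond is grey. No gene had probe sets that passed in opposite directions.

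Non-muscle myosin II pulls on actin filaments and is built of heavy chains (Myh9, Myh10), essential light chains (Myl6) and regulatory light chains (Myl9), which the kinase encoded by Mylk phosphorylates. Here the genes that passed were higher. Myl9 read 7.30, 7.33 and 7.35 in knockout and 6.49, 6.31 and 6.48 in wild-type arrays, which is 1.87-fold higher in the knockout (log2 fold change 0.90, SE 0.07, adjusted p = 0.000361). This was the largest rise of the set, read by 1 probe set, and the lowest knockout value was well above the highest wild-type value. Myh10, the heavy chain of myosin IIB, read 10.65, 10.72 and 10.66 in knockout and 10.22, 10.15 and 10.25 in wild-type arrays (log2 fold change 0.47, SE 0.06, adjusted p = 0.0031). A dimmer probe set of Myh10, below 4.62 in both groups, did not pass.

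Myh9, the heavy chain of myosin IIA, had the opposite sign: it read 10.83, 10.98 and 10.86 in knockout and 11.13, 11.08 and 10.99 in wild-type arrays, a difference of -0.17 that did not pass (adjusted p = 0.18). All 5 Myh9 probe sets had values below 0 and none passed. Myl6 differed by -0.03 (95% interval -0.25 to 0.19), and Mylk was below 4.62 on every array.

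Cross-linkers tie filaments into bundles and networks. Flnc, the muscle-enriched filamin, fell, with 6.04, 6.27 and 6.23 in knockout and 6.81, 6.73 and 6.79 in wild-type arrays (log2 fold change -0.60, SE 0.08, adjusted p = 0.00291). Its second probe set also fell, by 0.44. The widely expressed filamin gene Flna averaged 9.46 ± 0.02 in knockout and 9.36 ± 0.09 in wild-type arrays (SD, n = 3 each) and did not pass. Among the alpha-actinins, Actn1 was 0.19 higher without passing (adjusted p = 0.0865, groups not overlapping), and Actn4 differed by -0.03 (95% interval -0.17 to 0.12).

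Focal adhesion proteins link filaments to integrins. None of the 4 passed the test with its brightest probe set. Talin, encoded by Tln1, differed by 0.16 (adjusted p = 0.252), although its second probe set was higher by 0.26 and passed (adjusted p = 0.028). Vinculin, encoded by Vcl, a known SRF target with the CArG box shown above, averaged 10.18 ± 0.03 in knockout and 10.07 ± 0.07 in wild-type arrays (SD, n = 3 each), a difference of 0.11 (95% interval -0.04 to 0.27). Zyxin, encoded by Zyx, which gathers at stretched filaments, differed by -0.19 (adjusted p = 0.161). Its second probe set differed by -0.27 (adjusted p = 0.0572). With all probe sets of a gene averaged, Zyx was lower (-0.23, limma adjusted p = 0.0377) and Tln1 higher (0.22, limma adjusted p = 0.0367). Tgfb1i1, which encodes the paxillin relative Hic-5, differed by -0.01 at a level near 4.62.

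LIM domain proteins dock on stress fibres and Z discs, and several also act in the nucleus. Fhl1, a four-and-a-half-LIM gene of the X chromosome, read 8.20, 8.31 and 8.24 in knockout and 9.02, 8.99 and 8.88 in wild-type arrays (log2 fold change -0.71, SE 0.07, adjusted p = 0.000725). Fhl2, a known SRF target that in mouse cells can antagonise SRF, read 4.60, 4.44 and 4.91 in knockout and 5.44, 5.34 and 5.29 in wild-type arrays (log2 fold change -0.71, SE 0.12, adjusted p = 0.00916). The groups did not overlap for either gene, but Fhl2 lay near 4.62 in the knockout. Csrp1, which encodes a cysteine-rich protein of smooth muscle, fell evenly, with 7.89, 7.87 and 7.85 in knockout and 8.52, 8.36 and 8.52 in wild-type arrays (log2 fold change -0.60, SE 0.07, adjusted p = 0.00173). A second Csrp1 probe set fell by 0.70.

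Lima1, which encodes the filament-stabilising protein EPLIN, rose instead. It read 8.80, 8.85 and 8.83 in knockout and 8.60, 8.55 and 8.56 in wild-type arrays (log2 fold change 0.26, SE 0.06, adjusted p = 0.0275). All 5 of its probe sets had values above 0 and 2 of them passed, and the call was lost under the replicate block and in 5 of 6 fits with an array omitted, all but the one without wild-type replicate 1, with an adjusted p of 0.109 without knockout replicate 2. Fhl3, Pdlim1, Pdlim7 and Csrp2 did not pass, with differences from -0.21 for Pdlim7 to 0.11 for Pdlim1. Of 3 Pdlim7 probe sets, the dimmer ones had the opposite sign (0.152 and 0.148) and did not pass either.

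Ezrin and moesin tie filaments to the plasma membrane. Msn fell, lying between 9.67 and 9.71 on knockout arrays and between 9.93 and 10.06 on wild-type arrays without overlap (log2 fold change -0.30, SE 0.06, adjusted p = 0.0204), and its second probe set fell by 0.43. The call was lost under the replicate block and without knockout replicate 1, 2 or 3 or wild-type replicate 3, and its adjusted p was 0.0818 without knockout replicate 1. Ezr read 10.53, 10.55 and 10.54 in knockout and 10.74, 10.59 and 10.72 in wild-type arrays and did not pass (-0.14, adjusted p = 0.238). Cofilin, encoded by Cfl1, severs filaments, and profilin, encoded by Pfn1, feeds monomers to growing ends. Cfl1 and Pfn1 differed by 0.08 and 0.05 and did not pass (95% intervals -0.06 to 0.21 and -0.10 to 0.21). A second, dimmer Cfl1 probe set was 0.26 higher without overlap and also did not pass (limma adjusted p = 0.0697).

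The spread between replicates was small and unequal. The median SD over the 40 genes was 0.03 in knockout and 0.08 in wild-type arrays, and 0.07 and 0.11 over all genes. The knockout SD was the smaller for 32 of the 40 genes (80%) and for 69.1% of all genes. The 40 genes lie on 19 chromosomes. For each, the median log2 fold change of the 10 nearest genes on either side with a mean above 7 (16 genes in all for Ezr) was between -0.06 and 0.17, so none lay in a stretch lowered by 0.4 or more. The neighbours of Tagln had a median of 0.02, those of Cald1 0.17 and those of Fhl1 0.10. The control probe sets at the 3′ and 5′ ends of the beta-actin transcript, a measure of RNA integrity and labelling, differed by 0.27 to 0.29 (log2) on knockout and 0.23 to 0.25 on wild-type arrays. For Gapdh the same difference ran from -0.19 to -0.17 in knockout and from -0.17 to -0.15 in wild-type arrays. The part of this small shift in the results was not tested.

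Other genes of the actin pathway were taken from 7 lists with 139 further genes, of which 128 had a probe set of their own. Of these, 27 fell (21.1%), 14 rose (10.9%) and 87 did not pass, with a median log2 fold change of 0.01. The shares over all genes were 10.4% lower and 8.53% higher. Among genes with a mean above the median of all values they were 14.5% and 12.2%. The lists and the 40 genes were chosen with earlier results known, so these counts are descriptions.

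Among 9 regulators of SRF activity, 1 fell and none rose (median 0.00). Srf itself read 7.12, 7.22 and 7.23 in knockout and 7.47, 7.31 and 7.31 in wild-type arrays, a difference of -0.17 that did not pass (adjusted p = 0.189). The coactivator genes Mrtfa and Mrtfb differed by 0.12 and 0.00 (adjusted p = 0.564 and 0.987). The gene that fell was the ternary complex factor gene Elk3, with 7.17, 7.20 and 7.01 in knockout and 8.20, 8.05 and 7.91 in wild-type arrays (log2 fold change -0.93, SE 0.10, adjusted p = 0.00101). Of 16 immediate early SRF targets 11 fell and 1 rose (median -0.52), led by Egr1 (-4.88), Ccn1 (-1.78) and Ccn2 (-1.38). Among the 40 cytoskeletal genes the matching counts were 11 and 3 with a median of -0.03; whether the lists differ was not tested.

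Genes that bind monomers, cap or sever filaments moved both ways: of 20, 4 fell and 3 rose (median 0.01). Gsn, which encodes the severing protein gelsolin, read 5.90, 5.84 and 5.79 in knockout and 7.70, 7.65 and 7.60 in wild-type arrays, which is 3.49-fold lower (log2 fold change -1.80, adjusted p = 1.87e-05). The related capping protein gene Capg fell by 1.32, while Cap1, which encodes a protein that recycles actin monomers, rose by 0.76. Of 16 myosin genes 3 fell and 2 rose (median 0.05). Myl4, an essential light chain gene of atrial and embryonic muscle, read 6.01, 6.31 and 6.26 in knockout and 8.09, 7.87 and 7.91 in wild-type arrays (log2 fold change -1.76, adjusted p = 9.67e-05), the opposite direction to Myl9. Myo7a and Myo1e fell by 0.64 and 0.46, the Myo1e call being lost when all probe sets of the gene were averaged (adjusted p = 0.406).

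Of 26 focal adhesion genes 6 fell and 2 rose (median -0.05). Tes, a LIM domain gene whose protein binds zyxin, fell by 0.87, the laminin-binding integrin gene Itga3 by 0.81 and the integrin activator gene Fermt2 by 0.76. Of 20 genes of the Arp2/3 complex, nucleators and formins, which start new filaments, 4 rose and none fell (median 0.17). The 3 with the largest rise were Vasp (0.53), Wasl (0.37) and Fmnl2 (0.31, adjusted p = 0.0499). Of 23 other cross-linkers and membrane links 2 fell and 3 rose (median 0.09), with Pls1 at -0.46, Actn3 at 0.41 and Marcks at 0.34. The calls of Fmnl2, Wasl, Marcks and Actn3 were lost in 1 or more fits with an array omitted, with adjusted p values of 0.15 for Fmnl2, 0.0729 for Wasl, 0.107 for Marcks and 0.0543 for Actn3 without knockout replicate 2.

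**Figure D5:**
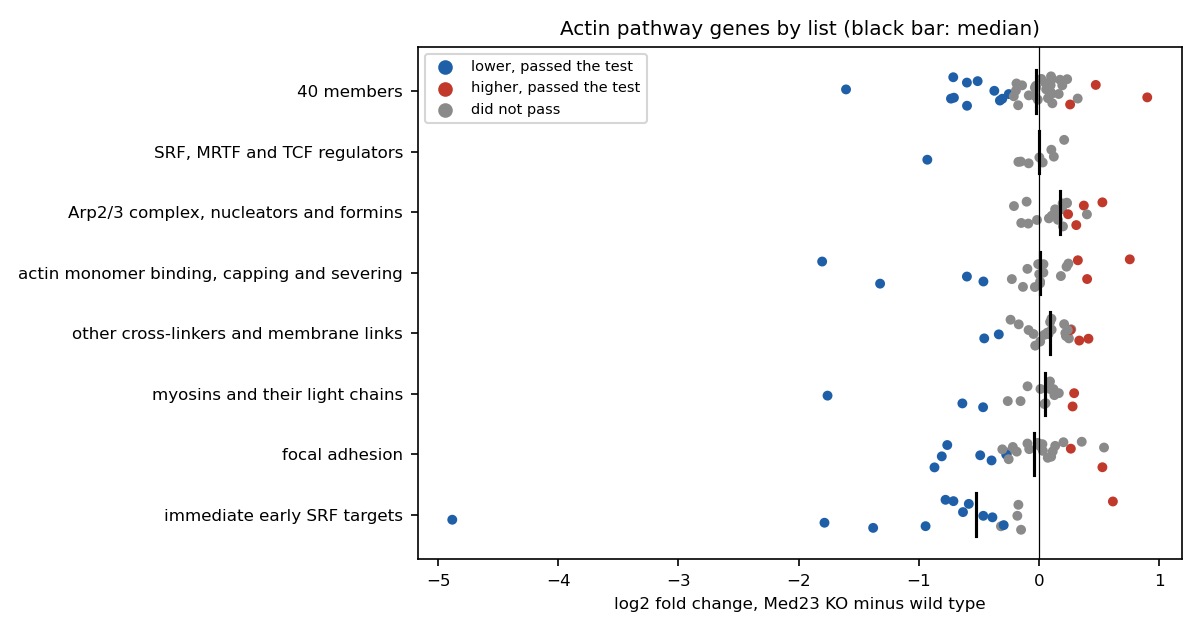
Log2 fold change (Med23 KO minus wild type) of the 40 members and of the genes of 7 further actin pathway lists, 1 point a gene, coloured by call, with the median of each list as a black bar and a random vertical spread for legibility. The medians lie near 0 apart from the immediate early SRF targets at -0.52 and the Arp2/3, nucleator and formin list at 0.17.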

How the data were processed

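The file the authors deposited holds log2 expression values in 1 column per array; the log base was read from the range of values. RMA and MAS5 are named, per the submitters' processing notes, which give neither's role nor version. Values were used as deposited. No detection calls were used. There were 45101 probe sets: 64 array controls, left aside, and 45037 tested, of which 34945 had 1 gene symbol, 932 several and 9160 none. By Entrez ID, 34741 matched RefSeq symbols (GRCm38.p6).

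Knockout and wild-type arrays were compared with limma 3.58.1 (R 4.3.3; lmFit, eBayes; two-sided), adjusting p values by Benjamini-Hochberg across the tested probe sets, with 0.05 as the threshold. The fit was tested on simulated data. Alternatives were other scalings, a trend, array weights, a filter on dim probe sets, other choices of probe set, a replicate block and leaving out each array. All 40 members are accounted for. From each list of other pathway genes up to 3 genes with the largest change past the threshold are named, besides Srf, Mrtfa, Mrtfb and Med23. Eif2s3y, Pou5f1, Myh11, Tdgf1, Nanog, Esrrb, Sox2, Zfp42 and Dppa5a are also named, chosen after their values were seen. The members, lists and tests were chosen with earlier results of these data known. Comparing proteins within families was planned and not carried out. Besides the 7 lists of pathway genes reported, 1 further planned list is not reported here.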

Additional observations from a re-analysis of the deposited data

How the results depend on the processing

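Across 16 alternatives, 8 of the 14 called genes kept their call wherever the alternative gave a value, and 19 of the 26 others never gained one. Calls were gained by Cnn2 and Cnn3 in 5 alternatives each, by Actg1 and Actn1 in 3 each and by Tln1 in 2. Tpm1 and Zyx gained a call in 1 alternative each. The number that fell was 7 with probe sets free of an a, s or x ending (32 genes had one) and 7 with the replicate block, against 11. The number that rose was 6 with a mean-variance trend, 6 with dim probe sets left out, 6 with all probe sets of a gene averaged, 5 with array weights and 5 with the probe set of largest spread, against 3. Leaving out 1 array gave 6 to 9 lower genes, 2 to 5 higher genes and medians of the log2 fold change from -0.0707 to 0.0202; these fits have fewer samples. With array weights the median was 0.0237, against -0.0258. Tpm1 reversed to 0.83 with its probe set of largest spread. The cause of the other shifts was not tested. Replicate numbers are shared between the groups, and the labels do not say whether they mark arrays handled together. Deviations of same-numbered arrays from their group means correlated at -0.42, -0.33 and 0.06. With 3 arrays a group these deviations depend on one another, so whether the numbers pair the arrays cannot be told from them.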
